A study of Sus scrofa with 6 samples.

Results

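COL1A2, SERPINH1, LAMB1, LAMC1, ADAMTS8 and ADAMTS15 are 6 genes that build or remodel the extracellular matrix, taken by symbol from the 1780 genes of the count table. All 6 were measured, with 2071 to 366738 reads each over the 6 libraries, and all 6 were among the 807 genes that passed the filter on low counts. RNA came from whole embryos of the pig, Landrace x Yorkshire x Duroc (LYD) crosses at embryonic day 21. The 3 control embryos were untreated, and the 3 parthenotes came from oocytes activated by electric pulses and carried in surrogate gilts, so that they had no paternal genome. The count table heads the controls AI-F1 to AI-F3, a name that the labels do not explain, and nothing in the labels states whether embryos shared a litter, so a p-value here weighs a difference against the spread among these embryos, which may be technical or come from a shared source. The way of conception went with the group and cannot be told apart from it. Without a paternal genome no parthenote could carry a Y chromosome, so any male among the controls would add a difference in sex. Surrogate gilts are named for the parthenotes only, so the kind of dam may differ between the groups as well. Exact stage may also differ. Any such difference is mixed into the comparison of the groups, and its part was not tested. Of the 688 genes of the table that could be placed by symbol, 686 lie on chromosome 9, and genes of other chromosomes were largely not analysed here. Each library held 1193714 to 1484193 reads in the table.

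Collagen I is the main fibrillar collagen of skin, bone and loose connective tissue. It is a triple helix of alpha 1 chains and an alpha 2 chain, folded in the endoplasmic reticulum with the help of a collagen-specific chaperone. Laminins are the cross-shaped trimers around which basement membranes assemble, and the beta 1 and gamma 1 chains are part of the laminins found under most epithelia and around vessels and muscle of the embryo. ADAMTS proteases are secreted metalloproteases with thrombospondin motifs that cut matrix proteoglycans and other matrix proteins.

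In whole embryos, none of the 6 genes differed between parthenotes and controls beyond the spread between embryos. Their log2 fold changes, parthenote over control, ran from -0.17 for LAMB1 to 0.07 for LAMC1, with 3 above 0 and 3 below. By edgeR's quasi-likelihood test, none of the 6 (0 of 6) was called, against 5.20% of the 807 tested genes, and 0 had an unadjusted p under 0.05. DESeq2 and limma-voom also called 0 of the 6. The groups overlapped for all 6 genes, whereas 28.0% of the tested genes had groups that did not overlap. The 6 genes were chosen with earlier results of these data known, so comparing them with all tested genes is a description only. The smallest fold change among the 42 called genes was 1.27-fold. In a whole embryo, fewer cells of a type and less RNA per cell cannot be told apart.

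COL1A2 encodes the alpha 2 chain of collagen I and lies at positions 74174484 to 74210407 of chromosome 9 in Sscrofa11.1. It took 3.88% to 4.93% of the counted reads of each library. Nearly all the placed genes lie on chromosome 9, so neither this share nor a CPM here refers to all RNA of the embryo. The controls, in the order of their numbers, had 55122, 58323 and 61707 reads, and the parthenotes 53205, 67223 and 71158. Scaled with TMM to counts per 1000000 counted reads (CPM), these were 43436, 45764 and 46591 in controls and 40685, 47655 and 47881 in parthenotes. Parthenote 1 was the lowest of all embryos and parthenotes 2 and 3 the highest, so the controls lay inside the range of the parthenotes.

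The mean COL1A2 level was 45264 ± 1636 CPM in controls and 45407 ± 4091 CPM in parthenotes (SD, n = 3 each). The fold change was 1.00, with a 95% interval of 0.835 to 1.20. Its adjusted p in edgeR's quasi-likelihood test, over the 807 genes, was 0.988. On the log2 scale the value stayed between -0.05 and 0.08 over 19 alternative settings, and its sign turned in 11 of them. Only 1.12% of the tested genes had a smaller fold change in size. Counting error was at most 0.434% of any library's COL1A2 count, so depth added little to the interval. The test shares information on the spread between genes, so the interval reflects more than the spread of COL1A2 between these embryos.

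SERPINH1 encodes the endoplasmic reticulum chaperone that binds folded procollagen, and lies at 9782939 to 9794485. It had 17158, 16576 and 17455 reads in controls and 17142, 17400 and 18897 in parthenotes. The scaled levels were 13521, 13007 and 13179 CPM in controls and 13108, 12335 and 12715 CPM in parthenotes. Parthenotes 2 and 3 were below all controls, and parthenote 1 lay within them.

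SERPINH1 varied little within both groups, with a coefficient of variation of 1.98% in controls and 3.04% in parthenotes. Its means were 13235 ± 262 and 12720 ± 387 CPM (SD, n = 3 each). The fold change was 0.961 with a 95% interval of 0.826 to 1.12, and the adjusted p in edgeR's test was 0.782. RefSeq places a long non-coding RNA across part of SERPINH1 and another across part of LAMB1. The library kit did not mark strand, so reads from any stretch that such a pair shares could not be told apart; whether their exons overlap was not examined.

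**Figure D1:**
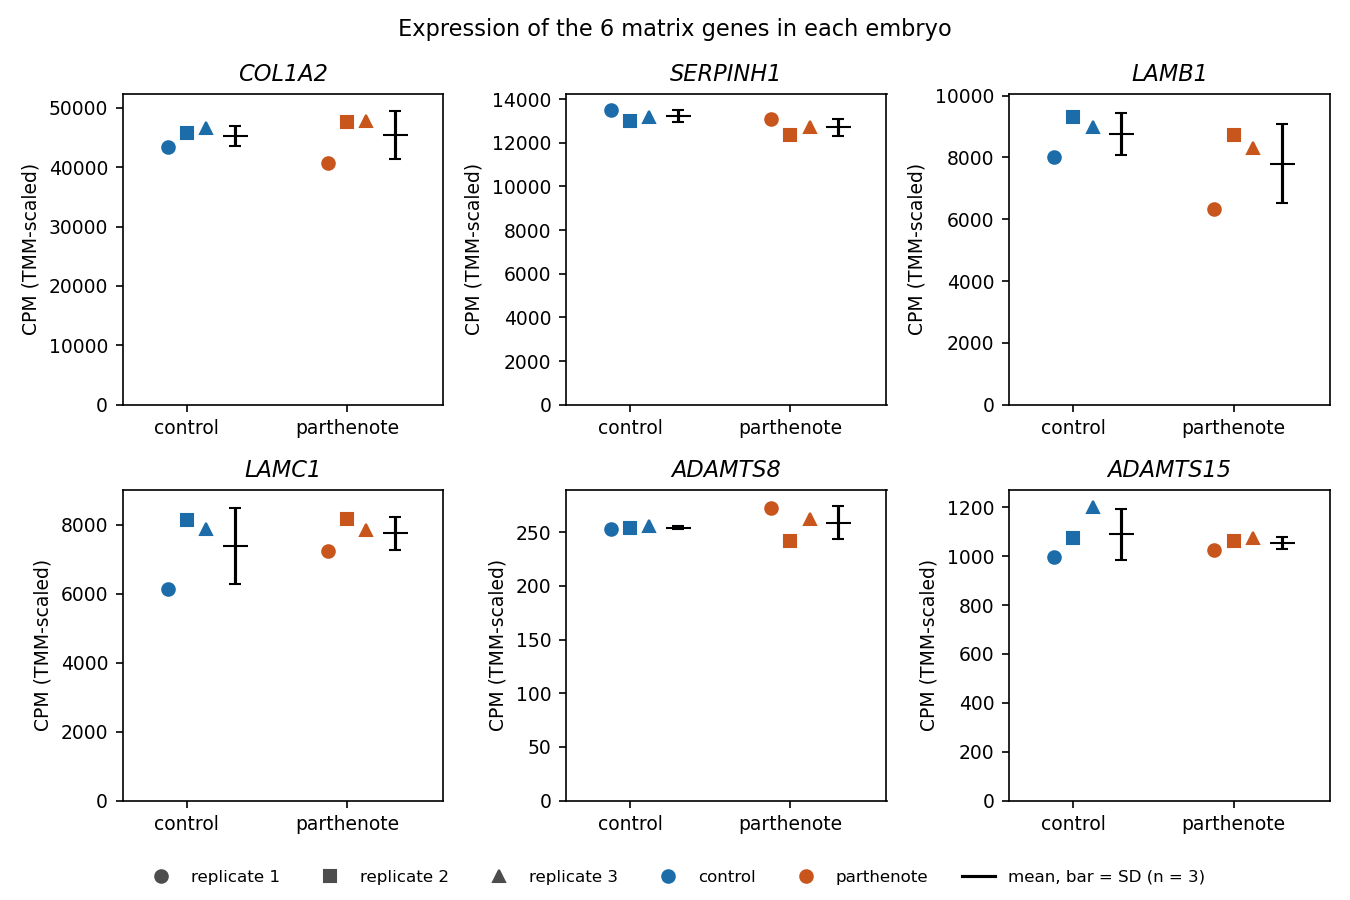
Level of each gene in each embryo, in TMM-scaled CPM on axes that start at 0, with controls in blue, parthenotes in orange, a marker shape for each replicate number, and the mean and SD of each group of 3 beside the points. The groups overlap in all 6 panels, and the low points of LAMB1 (parthenote 1, 6342 CPM) and LAMC1 (control 1, 6131 CPM) stand apart from the rest.

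LAMB1 encodes the laminin beta 1 chain and lies at 107670120 to 107747242. It had 10168, 11854 and 11891 reads in controls and 8294, 12303 and 12361 in parthenotes. Scaled, the controls stood at 8012, 9301 and 8978 CPM and the parthenotes at 6342, 8722 and 8318 CPM. Parthenote 1 was the lowest by a wide margin, while parthenotes 2 and 3 lay among the controls.

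The LAMB1 means were 8764 ± 671 CPM in controls and 7794 ± 1273 CPM in parthenotes (SD, n = 3 each). The fold change was 0.889 with a 95% interval of 0.715 to 1.11, the widest of the 6 genes, and the adjusted p in edgeR's test was 0.516. Without parthenote 1 the log2 fold change moved from -0.17 to -0.04. A LAMB1 level that was lower by up to 1.40-fold therefore lay inside the interval, whereas a higher level was bounded more tightly.

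LAMC1 encodes the laminin gamma 1 chain, which pairs with beta chains in most laminins, and lies at 124283668 to 124405967. It had 7780, 10373 and 10425 reads in controls and 9462, 11500 and 11652 in parthenotes. Scaled, the levels were 6131, 8139 and 7871 CPM in controls and 7235, 8152 and 7840 CPM in parthenotes. Here control 1 was the lowest, and the other embryos of both groups lay between 7235 and 8152 CPM.

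The LAMC1 means were 7380 ± 1091 CPM in controls and 7743 ± 466 CPM in parthenotes (SD, n = 3 each). The fold change was 1.05 with a 95% interval of 0.856 to 1.29, and the adjusted p in edgeR's test was 0.798. Without control 1 the log2 fold change went from 0.07 to -0.05, so the sign of this value rested on that library.

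ADAMTS8 and ADAMTS15 are neighbours on chromosome 9, at 57090313 to 57113077 and 57127527 to 57152550, with 14449 bp between them. ADAMTS8 had 321, 324 and 339 reads in controls and 356, 341 and 390 in parthenotes. In CPM it stood at 253, 254 and 256 in controls and at 272, 242 and 262 in parthenotes. The controls lay inside the range of the parthenotes.

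The mean of ADAMTS8 was 254 ± 1.51 CPM in controls and 259 ± 15.6 CPM in parthenotes (SD, n = 3 each). The control embryos spread by 0.594% of their mean, less than the 5.52% that counting error alone gives at this depth, so their close match is not a measure of precision. The test shares information on the spread between genes and gave a 95% interval of 0.851 to 1.22 around a fold change of 1.02. The adjusted p in edgeR's test was 0.935.

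ADAMTS15, a protease that can cut the proteoglycan versican, had 1263, 1367 and 1591 reads in controls and 1342, 1496 and 1594 in parthenotes. In CPM the controls stood at 995, 1073 and 1201 and the parthenotes at 1026, 1061 and 1073. All parthenotes lay between the lowest and the highest control.

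The mean of ADAMTS15 was 1090 ± 104 CPM in controls and 1053 ± 24.1 CPM in parthenotes (SD, n = 3 each). Its fold change of 0.966 had the tightest interval of the 6 genes, 0.841 to 1.11, and only 7.93% of the tested genes had a narrower one. The adjusted p in edgeR's test was 0.792.

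Taking the intervals of the 6 genes side by side, each lay within a 1.5-fold change in either direction, as did those of 51.3% of the tested genes. Those of COL1A2, SERPINH1, ADAMTS8 and ADAMTS15 lay within 1.25-fold, against 17.3% of the tested genes. The outermost bounds were 1.19-fold for ADAMTS15, 1.20-fold for COL1A2, 1.21-fold for SERPINH1, 1.22-fold for ADAMTS8, 1.29-fold for LAMC1 and 1.40-fold for LAMB1. Each interval covers 95% for its own gene and was not widened for the number of genes. Scaled by library totals alone, the bound of LAMB1 reached 1.505-fold, and without parthenote 2 or parthenote 3 it reached 1.53-fold and 1.52-fold.

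The spread that the test used, shared in part between genes, set the fold change needed to pass the adjusted threshold. It was 1.29 for ADAMTS15, 1.32 for SERPINH1, 1.38 for ADAMTS8, 1.40 for COL1A2, 1.45 for LAMC1 and 1.49 for LAMB1. Smaller differences in these genes would not have been called with 3 embryos a group. All 6 intervals were narrower than the median of the tested genes, and all 6 fold changes were smaller in size than the median. Because the 6 genes were chosen with earlier results known, this too is a description only.

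**Figure D2:**
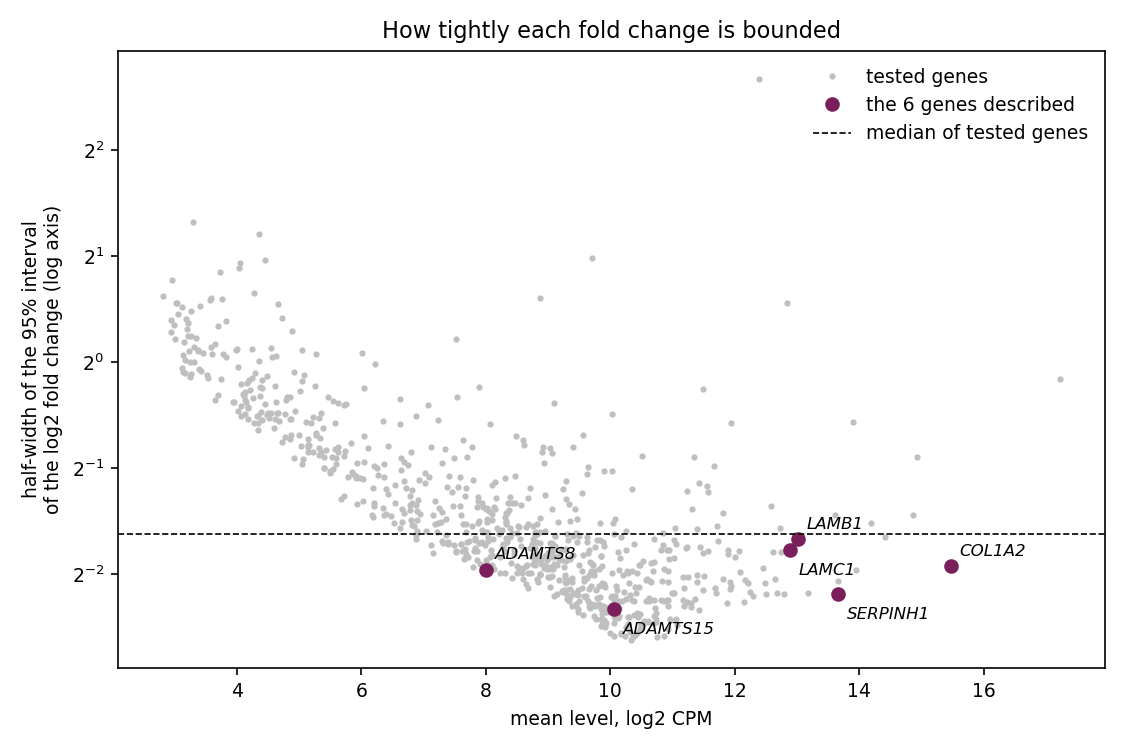
Distance from the log2 fold change to its 95% bound (log axis) against the mean level in log2 CPM, with each of the 807 tested genes in grey and the 6 genes described in purple. All 6 lie below the dashed median of 0.32, LAMB1 at 0.31 and ADAMTS15 at 0.20.

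The 6 genes did not all vary together across embryos. The largest deviations from a gene's mean over the 6 embryos, in log2 CPM, were -0.37 for LAMB1 in parthenote 1 and -0.30 for LAMC1 in control 1. COL1A2 was also lowest in parthenote 1 and control 1, with -0.15 and -0.06. SERPINH1 ran the other way, highest in control 1 with 0.06 and lowest in parthenote 2 with -0.07. The Pearson correlation of log2 CPM over the 6 embryos was 0.84 between COL1A2 and LAMB1 and -0.61 between COL1A2 and SERPINH1, as a description over 6 libraries that share their scaling. Every pair among COL1A2, LAMB1, LAMC1 and ADAMTS15 had a positive correlation, from 0.46 to 0.84. SERPINH1 and ADAMTS8 each correlated negatively with all of these.

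Control 1 and parthenote 1 were also the libraries least like the others of their group in a chi-square summed over the tested genes. Per degree of freedom it was 52.9 to 143 against the others and 6.98 and 21.2 among those. It was taken on read counts without TMM scaling, so abundant genes weigh most in it. The part of the most abundant gene in it was not separated. The most abundant gene, ENSSSCG00000014726, took 20.8% of the counted reads of control 1 and 8.29% and 8.47% in controls 2 and 3, and 15.4% to 19.1% in parthenotes. Its part in the levels of COL1A2, LAMB1 and LAMC1 was not tested, and with that gene left out of the table their log2 fold changes were -0.0091, -0.18 and 0.06. Without control 1 and parthenote 1, a setting chosen after seeing the data, the values were 0.04 for COL1A2, -0.11 for LAMB1 and -0.0082 for LAMC1, and none of the 6 genes passed.

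Between embryos of the same number, LAMB1 and SERPINH1 were lower in 3 of 3 parthenotes. The log2 differences, parthenote minus control, were -0.34, -0.09 and -0.11 for LAMB1 and -0.04, -0.08 and -0.05 for SERPINH1. The other 4 genes had differences of both signs, and 47.8% of the tested genes had 1 sign in all 3 pairs. With the replicate number as a block, the adjusted p in edgeR's test was 0.347 for LAMB1 and 0.788 for SERPINH1.

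**Figure D3:**
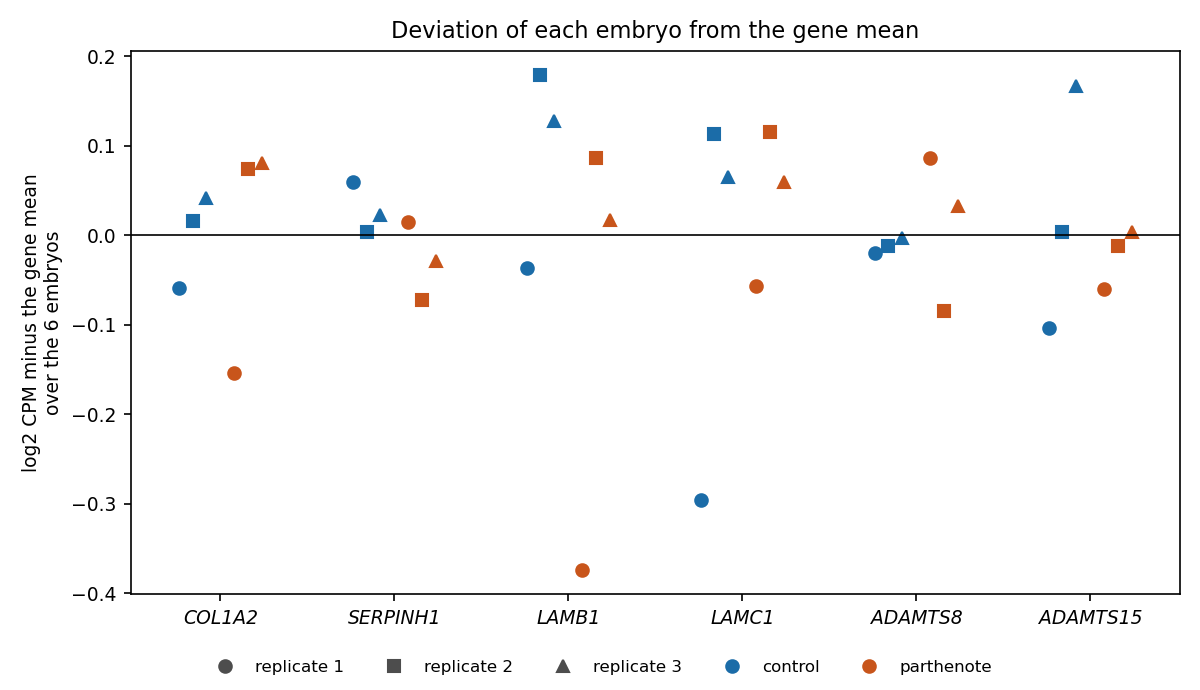
Deviation of each embryo's log2 CPM from the gene's mean over the 6 embryos, with controls in blue, parthenotes in orange and a marker shape for each replicate number. The circles of replicate 1 are the lowest points for COL1A2, LAMB1 and LAMC1, down to -0.37 for LAMB1 in parthenote 1, while SERPINH1 stays within 0.08 of its mean.

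Ratios of reads within a library do not depend on library scaling, and 3 were compared: a collagen chain to its chaperone, a laminin chain to its partner, and the neighbouring proteases to each other. Their absolute size depends on transcript length, so only the difference between embryos is read. COL1A2 to SERPINH1 was 3.21, 3.52 and 3.54 in controls and 3.10, 3.86 and 3.77 in parthenotes. ADAMTS8 to ADAMTS15 was 0.254, 0.237 and 0.213 in controls and 0.265, 0.228 and 0.245 in parthenotes. Both overlapped between the groups, with exact two-sided permutation p-values of 0.60 and 0.50 (0.60 each after Benjamini-Hochberg adjustment over the 3 ratios).

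LAMB1 to LAMC1 was 1.31, 1.14 and 1.14 in the controls and 0.877, 1.07 and 1.06 in the parthenotes, in the order of their numbers, lower in 3 of 3 parthenotes than in any control. On the log2 scale the difference, parthenote minus control, was -0.26, a ratio 0.836 times that of controls. The exact two-sided permutation p was 0.10, the smallest that 3 against 3 can give, and 0.30 after adjustment over the 3 ratios. A threshold of 0.05 was thus out of reach of this test, whatever the size of the difference. Its size rested on the libraries numbered 1: it was -0.19 without control 1, -0.16 without parthenote 1 and -0.10 without both. The exact permutation p-values were 0.30, 0.20 and 0.33. Without both, 0.33 was the smallest that the embryos left could give. These p-values rest on different numbers of embryos and cannot be ranked against each other. Without both, a setting chosen after seeing the data, the remaining groups did not overlap. With so few embryos left, that separation carries little weight.

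**Figure D4:**
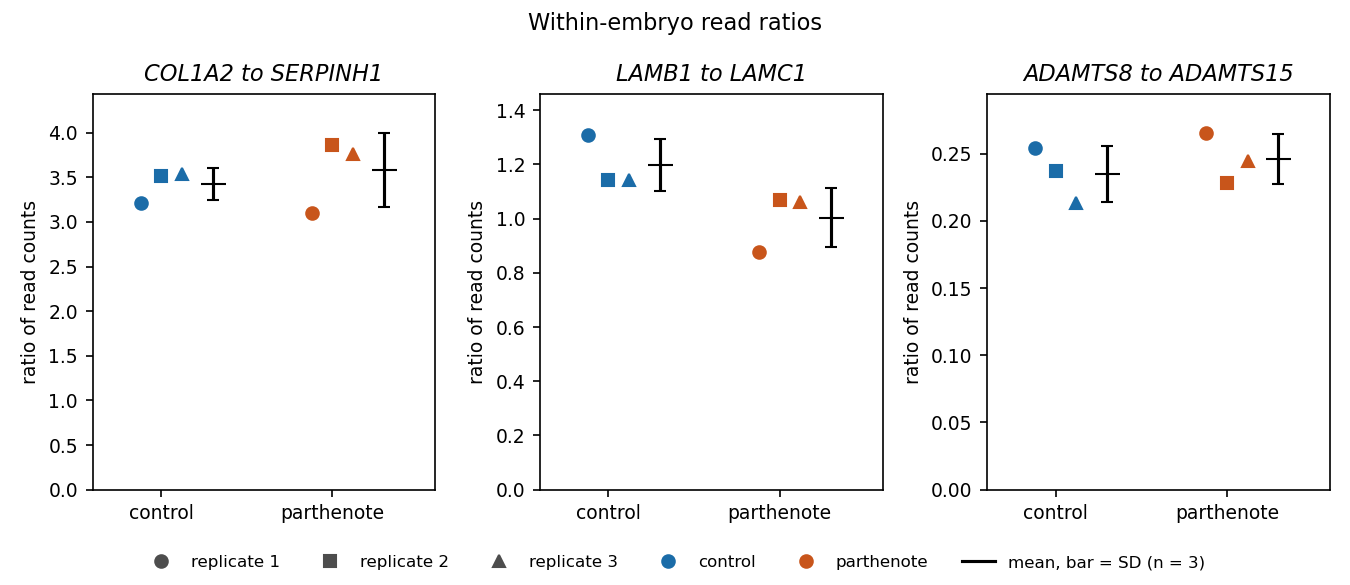
Ratio of read counts within each embryo for the 3 gene pairs, on axes that start at 0, with controls in blue, parthenotes in orange, a marker shape for each replicate number, and mean and SD of each group of 3. LAMB1 to LAMC1 is the pair whose groups do not overlap, with 1.20 ± 0.0954 in controls and 1.00 ± 0.109 in parthenotes.

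The wider matrix lists, 247 genes over 8 roles, had 32 genes in the table and 23 that were tested, the 6 above included. By edgeR's quasi-likelihood test, SGCE alone (1 of 23) was called, lower, and 0 were called higher, against 3.59% and 1.61% of all tested genes. SGCE, a sarcoglycan gene that is also paternally expressed, had a log2 fold change of -5.35 ± 0.34 (SE). The median log2 fold change of the 23 genes was 0.01, beside 0.02 over all tested genes. Of the 23, 4 had groups that did not overlap, among them SGCE, COLGALT2 and TFPI2, beside the 28.0% of all tested genes given above.

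Of the genes of collagen synthesis, SERPINH1 stood beside P4HA3, a subunit of collagen prolyl hydroxylase, and COLGALT2, which adds galactose to collagen hydroxylysines. COLGALT2, chosen after its values were seen, stood at 235 ± 39.8 CPM in controls against 331 ± 54.5 in parthenotes (SD, n = 3 each), a log2 fold change of 0.49 ± 0.17 (SE), with an adjusted p of 0.143 in edgeR's test. P4HA3 had a log2 fold change of 0.32 ± 0.17. Neither passed, and their intervals, 0.11 to 0.87 and -0.07 to 0.71, reached farther than that of SERPINH1.

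Of the 5 laminin chains tested, 0 were called. LAMB3, a chain of the laminin that anchors epidermis and other surface epithelia, had 177, 162 and 211 reads in controls and 233, 200 and 270 in parthenotes. Its log2 fold change was 0.24 ± 0.16 (SE), with an adjusted p of 0.415 in edgeR's test. LAMB4, the neighbour of LAMB1, had only 6 to 19 reads per library and an interval of -1.21 to 1.13. HMCN1, which encodes the basement membrane protein hemicentin, had a log2 fold change of 0.23 ± 0.22.

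The 8 tested proteoglycan and glycoprotein genes gave 0 calls. FMOD, which encodes the collagen-binding proteoglycan fibromodulin, averaged 3354 ± 459 CPM in controls against 2718 ± 300 in parthenotes (SD, n = 3 each). Its log2 fold change was -0.30 ± 0.13 (SE) and its adjusted p in edgeR's test 0.209. TFPI2, an inhibitor of serine proteases of the matrix, had a log2 fold change of -0.44 ± 0.15 and an adjusted p of 0.136. ITGB8, an integrin chain, had a log2 fold change of -0.03 ± 0.10.

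The matrix metalloproteinase genes were close to the limit of detection. Of the 7 in the table, MMP12 and MMP27 had 1 and 2 reads over all libraries and were not measured, and the other 5 had 12 to 46 reads and did not pass the filter. MMP1 and MMP8 were chosen after their values were seen. MMP1, interstitial collagenase, had 5, 3 and 3 reads in controls and 13, 13 and 6 in parthenotes. MMP8, neutrophil collagenase, had 3, 23 and 12 reads in controls and 3, 1 and 4 in parthenotes. In the edgeR fit that kept genes with at least 10 reads in total, the adjusted p was 0.191 for MMP1 and 0.139 for MMP8. Among the settings run, MMP8 was called only without control 1 (adjusted p = 0.0489 in edgeR's test).

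**Figure D5:**
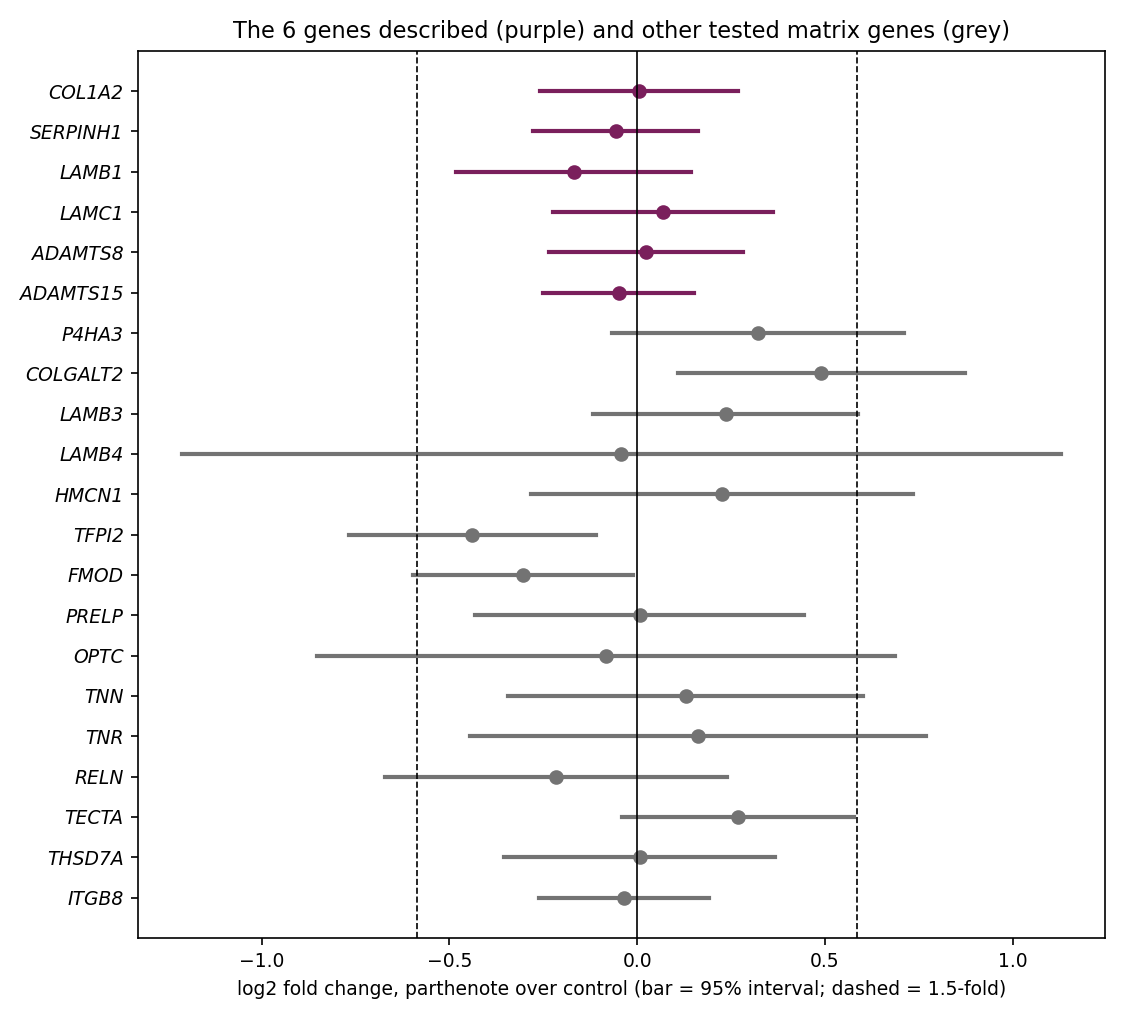
Log2 fold change, parthenote over control, with its 95% interval from edgeR's fit for the 6 genes described (purple) and 15 of the 17 other tested matrix genes (grey); dashed lines mark a 1.5-fold change, and SGCE, at -5.35, is among those not drawn. The purple intervals cross 0 and stay inside the dashed lines, while those of COLGALT2, TFPI2 and FMOD do not cross 0 and none of these 3 passed after adjustment.

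On chromosome 9, COL1A2 lies 192 kb from SGCE and 264 kb from PEG10, paternally expressed genes whose log2 fold changes were -5.35 and -10.55. CASD1, between COL1A2 and SGCE and 66.1 kb from COL1A2, had a log2 fold change of 0.09 ± 0.09 (SE, adjusted p = 0.578 in edgeR's test). SERPINH1 lies 16.4 kb from MAP6, a microtubule-stabilising protein gene, which rose by 0.55 ± 0.09 on the log2 scale (adjusted p = 0.00900). The annotated span of LAMB1 lies 1.68 kb from that of DLD, which encodes a subunit of mitochondrial dehydrogenases, with a log2 fold change of -0.42 ± 0.11 (adjusted p = 0.0649).

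The genes whose log2 CPM followed LAMC1 most closely over the 6 embryos were PHLDB1, PLXNA2 and DSCAML1, with Pearson correlations of 0.99, 0.97 and 0.97. For COL1A2 they were TRAF5, KBTBD3 and AKAP9, with 0.93, 0.92 and 0.91. These were the 3 highest among 656 other tested genes with a symbol, over 6 libraries that share their scaling, and are given as a description.

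Marker lists for the tissues of the embryo gave calls in both directions. The kidney tubule list had 3 of 3 tested genes lower, with summed levels of 1852 to 2182 CPM in controls and 483 to 556 CPM in parthenotes. The neural list had 3 of 4 higher, with 7052 to 8262 CPM and 9409 to 11216 CPM. Of the mesenchyme and bone list, DLX5 and DLX6 were measured and 0 of 2 passed, with sums of 273 to 307 CPM in controls and 367 to 391 CPM in parthenotes. The surface epithelium list had 1 of 3 lower, and the liver and yolk sac list 1 of 3 higher. LAMB3, also of the surface epithelium list, was not called, with a log2 fold change of 0.24. For both lists the summed levels overlapped between the groups. Those of liver and yolk sac were 29039 to 33808 CPM in controls and 26128 to 51368 CPM in parthenotes. None of the 3 endothelial genes, the muscle gene MYOG or the red cell gene HBB passed. That does not make them unchanged: HBB stood at 873 to 2065 CPM in controls and 102 to 575 CPM in parthenotes. In the same order, the endothelial sums were 4157 to 4523 CPM and 3991 to 4192 CPM. MYOG stood at 1069 to 1133 CPM and 1171 to 1262 CPM. PGR, of the uterine list, had 1 to 3 reads in controls and 0 in parthenotes. What part these tissues have in the levels of the 6 genes was not tested.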

How the data were processed

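RNA of 6 whole embryos was made into TruSeq RNA v2 libraries, per the labels' protocols. HISAT2 2.1.0, SAMtools 1.9 and Sscrofa11.1 are named in the submitters' processing notes; a counting tool was not given in the sources used here. Raw read counts per Ensembl gene make up the deposited table. The authors' normalized signal, deposited by sample, is whole reads (100% within 0.01) times a factor of 0.916 to 1.05, used as an alternative only. Symbols came from a table of gene names (779 of 1780 genes matched) and positions from RefSeq's Sscrofa11.1 table.

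Counts were filtered with filterByExpr (minimum count 10, minimum total 15), scaled with TMM and tested with edgeR 4.0.16 in R 4.3.3 by a robust quasi-likelihood fit, with Benjamini-Hochberg adjustment over 807 genes and a threshold of 0.05. Intervals are 95% intervals from that fit's SE and degrees of freedom. Ratios were compared by exact permutation over the 20 splits. Alternatives were other scalings, filters, DESeq2 1.42.0, limma-voom (limma 3.58.1), glmTreat, a replicate block, and libraries left out.

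Same-numbered embryos deviated together over the tested genes (correlations of 0.365, 0.272 and 0.147), so by a rule of over 0.1 for each pair the numbers were taken to pair the samples in the block. Control 3 was as close to parthenote 2 (0.145) as to parthenote 3, and the labels themselves state no pairing. The 6 genes and all lists were chosen with earlier results of these data known. The naming rule took each of the 6 genes and, from each matrix list, called genes or the most abundant tested one; marker lists are given as counts. Other matrix genes and neighbours are named as well, chosen after their values were seen; 1 gene of the lists is not reported here. Floors and counting errors cover counting error only.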

Additional observations from a re-analysis of the deposited data

How the results depend on the processing

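None of the 6 genes passed the threshold under any of 19 alternatives, with adjusted p-values from 0.347 (LAMB1 with the replicate block) to 1.00 (glmTreat against a 1.5-fold change). SERPINH1 and LAMB1 kept their sign under all of them. COL1A2, at a log2 fold change of 0.0046, turned to -0.0027 with DESeq2's size factors and in DESeq2, -0.0034 with a filter of 10 reads in total, -0.0079 with library totals, -0.00010 in limma-voom, -0.013 without a filter, -0.030 with upper-quartile factors and -0.0091 without the most abundant gene. ADAMTS8 turned to -0.0083 with upper-quartile factors. Without control 1 and parthenote 1, added after seeing the data, LAMC1 was at -0.0082 and ADAMTS8 at -0.023. With 1 library left out, the ranges were -0.051 to 0.079 for COL1A2, -0.047 to 0.14 for LAMC1, -0.012 to 0.073 for ADAMTS8, -0.11 to 0.024 for ADAMTS15 and, for the log2 ratio of COL1A2 to SERPINH1, -5.6e-05 to 0.16. The 42 called genes became 68 in DESeq2, 13 with glmTreat, 76 without control 1 and parthenote 1, and 17 to 55 with 1 library left out; glmTreat is stricter by construction, and otherwise the cause was not tested. Called matrix genes numbered 1 to 2 with 1 library left out. With the replicate block 55 genes were called and no call among the matrix genes changed; the paired difference in LAMB1 to LAMC1 was -0.26 (exact sign-flip p = 0.25, the smallest that 3 pairs can give). Depth limited the metalloproteinase genes and LAMB4 and, with a counting error of 5.06% to 5.58% a library, also bore on ADAMTS8.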
